A study of Mus musculus with 12 samples.

Results

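The 58 genes described here encode the core of 2 signalling pathways, Wnt and Hippo, and were taken by name from a fixed list out of the 22367 protein-coding genes of the mm9 annotation used. They comprise 18 Wnt ligands, 12 receptors (10 Frizzled genes, Lrp5 and Lrp6), 8 secreted antagonists (3 Dkk genes, 4 Sfrp genes and Wif1) and 20 intracellular components, of which 8 are Hippo genes. DNA methylation was read by reduced representation bisulfite sequencing (RRBS), which sequences short, CpG-rich MspI fragments and gives, at each CpG, the share of reads that kept a methylated cytosine. The cells were PKD1-Het cells, proximal tubule epithelial cells heterozygous for Pkd1 from Pkd1 flox/-:TSLargeT mice, and all groups share this genotype and the large T transgene. They were treated for 24 h with PBS (the vehicle), with 50 µM of the DNA methyltransferase inhibitor 5-aza-2′-deoxycytidine (Aza), with 50 µM Aza plus metformin at 300 µM and tolvaptan at 10 µM, all unencapsulated (F-MTAza), or with the same 3 drugs in micelles (NP-MTAza). Each group has 3 libraries. For each gene the promoter was the window from 2000 bp upstream to 500 bp downstream of the gene start, and the body was the rest of the gene. The level of a window in a library was the percent of methylated reads over all CpGs with 5 or more reads, and a window was used where every library had 3 or more such CpGs.

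Of the 12 libraries, 10 were used, and Aza was represented by replicate 3 alone. The 10 libraries held 25259953 to 65680763 reads over their CpGs, and the median depth of a CpG was between 7 and 9 reads. PBS replicate 2 listed the fewest CpGs (1857916) and PBS replicate 3 the most (3973609), so a window often rests on more CpGs in one library than in another. The rule that set the genes and windows, written with earlier results of these data known, leaves out Aza replicates 1 and 2. Their tables list 35290 and 34646 CpGs more than once, against 0 in each of the other 10, and they also stood apart at the pathway genes. The promoters of these genes that were under 10% methylated in PBS had library medians of 0.529% to 5.59% in the 10 libraries used, but 43.4% and 49.3% in those 2. NP-MTAza replicates 1 and 2, like the excluded Aza libraries, carry 2 barcode sets in the labels, and the numbers of promoters and bodies called under NP-MTAza are given with and without them, the counts near the gene start and of single CpGs only with them. The libraries are separate samples by their labels only, so p-values measure the spread between these samples, which may be technical. In DNA from many cells, a loss in part of the cells and a smaller loss in all of them cannot be told apart. No RNA was analysed here, so the cell type could be checked by methylation only. Of the proximal tubule markers, the promoter of Hnf4a, a transcription factor of this segment, was at 83.1%, 94.7% and 82.5% in the PBS libraries. The promoter of Lrp2, which encodes the endocytic receptor megalin, was at 29.1%, 18.8% and 20.4%. The PBS median was 62.2% over the 4 of 8 proximal tubule promoters measured. It was 85.2% for 3 collecting duct promoters, 81.6% for 2 of the endothelium, 65.0% for 2 of epithelium in general and 45.5% for 2 of podocytes.

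In the canonical Wnt pathway, a secreted Wnt ligand binds a Frizzled receptor and the co-receptor Lrp5 or Lrp6, Dishevelled proteins relay the signal, and the complex of Axin, Apc and Gsk3b stops marking β-catenin (Ctnnb1) for destruction, so that β-catenin can act with TCF/LEF factors on target genes. Sfrp proteins and Wif1 bind Wnt ligands outside the cell, and Dkk1 and Dkk2 act on Lrp5 and Lrp6. In the Hippo pathway, Lats kinases with the scaffold protein Sav1 restrain the coactivator Yap1, which works with TEAD factors. Both pathways take part in kidney development, where Wnt9b and Wnt4 act in the formation of the nephron, Wnt11 at the tip of the ureteric bud and Wnt7b in the medulla.

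Promoters could be read for 47 of the 58 genes: 14 ligands, 12 receptors, 8 antagonists and 13 intracellular components. Those of Wnt6, Wnt8b, Wnt10a, Wnt16, Axin1, Axin2, Ctnnb1, Dvl1, Lef1, Lats2 and Sav1 missed the minimum in at least 1 library. The promoter sequences of 4 genes show what was read. Fzd3 and Dkk3 had the 2 highest promoter levels in PBS, Dvl3 was among the lowest, and Tcf7 had one of the largest differences from PBS. Each is the 300 bases before the gene start in mm9, read 5′ to 3′ on the gene's strand, and capitals mark the CpGs that at least 1 PBS library covered with 5 or more reads. The windows are chr14:65881301-65881600 (minus strand) for Fzd3, chr7:119302572-119302871 (minus strand) for Dkk3, chr16:20516755-20517054 (plus strand) for Dvl3 and chr11:52096682-52096981 (minus strand) for Tcf7.
Fzd3: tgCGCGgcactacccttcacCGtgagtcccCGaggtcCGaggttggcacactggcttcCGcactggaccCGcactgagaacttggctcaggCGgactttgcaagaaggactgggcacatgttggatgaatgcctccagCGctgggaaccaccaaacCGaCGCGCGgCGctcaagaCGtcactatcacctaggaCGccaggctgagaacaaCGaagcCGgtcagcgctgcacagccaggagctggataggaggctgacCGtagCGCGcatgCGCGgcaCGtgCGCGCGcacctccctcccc
Dkk3: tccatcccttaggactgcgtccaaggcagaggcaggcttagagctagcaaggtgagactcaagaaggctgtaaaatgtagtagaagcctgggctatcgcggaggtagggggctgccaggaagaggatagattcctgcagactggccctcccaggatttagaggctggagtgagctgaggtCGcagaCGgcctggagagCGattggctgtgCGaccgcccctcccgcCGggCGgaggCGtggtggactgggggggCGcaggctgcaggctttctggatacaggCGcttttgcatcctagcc
Dvl3: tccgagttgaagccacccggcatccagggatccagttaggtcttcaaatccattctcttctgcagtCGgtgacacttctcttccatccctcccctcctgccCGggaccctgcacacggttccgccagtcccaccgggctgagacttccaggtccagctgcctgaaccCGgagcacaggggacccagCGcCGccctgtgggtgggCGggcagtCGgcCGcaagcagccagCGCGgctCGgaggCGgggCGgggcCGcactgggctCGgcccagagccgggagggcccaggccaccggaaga
Tcf7: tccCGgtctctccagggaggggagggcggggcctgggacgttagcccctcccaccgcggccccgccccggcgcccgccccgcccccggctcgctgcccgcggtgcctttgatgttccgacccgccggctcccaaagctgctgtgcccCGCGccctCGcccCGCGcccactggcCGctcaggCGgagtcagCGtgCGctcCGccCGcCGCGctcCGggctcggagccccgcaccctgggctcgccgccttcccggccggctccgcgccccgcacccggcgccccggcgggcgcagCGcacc

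In PBS, 27 of the 28 CpGs of the Fzd3 sequence were read, and their levels over pooled reads ran from 23.7% to 100%, with a median of 100%. The medians of the CpGs read there were 82.3% over 18 CpGs in F-MTAza, 80.0% over 27 CpGs in NP-MTAza and 45.5% over 14 CpGs in Aza replicate 3. Most CpGs just before the Fzd3 start thus carried methylation on nearly every PBS read. The medians were lower in each treated group, but they are over different CpGs. The CpGs 15 to 43 bases before the start were read in 1 PBS library (13 reads) and 1 NP-MTAza library (5 reads). In F-MTAza and Aza replicate 3 they were not read. In the Dkk3 sequence, 9 of 14 CpGs were read in PBS, at 75.0% to 100%. In F-MTAza 4 were read, all at 100%, each on 5 reads of 1 library. In Aza replicate 3 it was 3 other CpGs, at 12.5% to 20%, on 5 to 8 reads, and in NP-MTAza 0. The treated groups thus share no CpG there and cannot be compared with each other, and each can be compared with PBS at few CpGs or none. The Dvl3 sequence is the other extreme. All 15 of its 22 CpGs that were read in PBS were at 0%, most of them in 1 PBS library only. In the Tcf7 sequence, 16 of 46 CpGs were read in PBS and lay between 0% and 8.33%, with a median of 0%, although the Tcf7 promoter as a whole was near the middle of the scale, because its methylated CpGs lie further upstream.

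The promoters of the 4 roles differed in their level in PBS. The median over genes was 59.8% for the 8 secreted antagonists, 43.3% for the 14 ligands, 20.6% for the 12 receptors and 4.36% for the 13 intracellular components, and it was 31.7% over all 47 genes and 16.2% over the 11682 protein-coding genes measured. Antagonists were thus the most methylated role and intracellular components the least, and single genes ranged widely within each role. The order of ligands and receptors turned where only the CpGs read in all 10 libraries were used (29.3% for 11 ligands, 37.9% for 10 receptors), and at 10 or more reads per CpG (50.8% and 53.7%, 4 genes each). At cuts of 40% and 10%, which were chosen after the values were seen, 20 of the 47 genes (42.6%) were at or above 40% in PBS against 35.1% of all genes, and 14 (29.8%) were below 10% against 42.9% of all genes. The 20 comprised 8 ligands, 4 receptors, 7 antagonists and 1 intracellular component, Tcf7. The 14 comprised 2 ligands, 4 receptors and 8 intracellular components, and 0 antagonists.

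**Figure D1:**
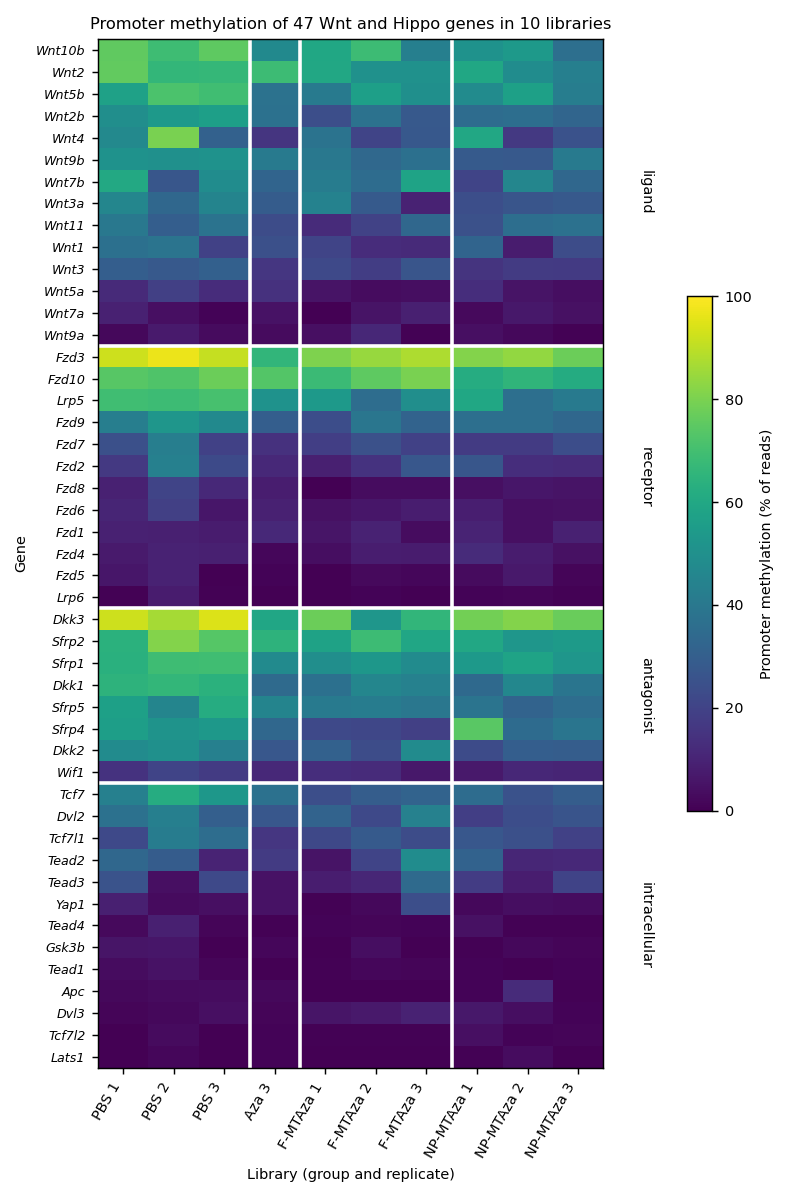
Promoter methylation (percent, colour) of the 47 measured genes, grouped by role, in each of the 10 libraries. Darker colours are lower levels. Antagonist promoters (PBS median 59.8%) are mostly methylated in PBS and darker in the treated libraries. Intracellular promoters (PBS median 4.36%) are mostly near 0 in all of the libraries.

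Under F-MTAza, the promoters of 10 of the 47 genes (21.3%) were called lower than in PBS, and under NP-MTAza 13 (27.7%). A call needed an adjusted p under 0.05 in limma and a shift of 10 percentage points or more. Over all genes, 23.0% of promoters were called lower under F-MTAza and 25% under NP-MTAza, so the shares among the pathway genes were near the background. None of the 47 promoters was called higher in either comparison. The F-MTAza calls were 2 ligands, 3 receptors, 4 antagonists and 1 intracellular component, and the NP-MTAza calls 5, 2, 5 and 1. Both combinations called 5 promoters, those of Wnt2b, Lrp5, Dkk1, Sfrp1 and Tcf7, and the 2 comparisons share their PBS libraries. In Aza replicate 3, whose spread the model takes from the other groups, 3 promoters (6.38%) were called lower, those of Fzd3, Dkk1 and Dkk3, against 11.3% of all genes. All 6 combination libraries lay below all 3 PBS libraries at 16 promoters (6 ligands, 4 receptors, 5 antagonists and 1 intracellular component), 34.0% of the 47, against 31.6% of all genes.

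The number of promoter calls depended on single libraries. With PBS replicate 2 left out, 6 promoters were called under F-MTAza. Under NP-MTAza 6 were called without PBS replicate 1, 5 without PBS replicate 3, 4 without NP-MTAza replicate 2 and 3 without NP-MTAza replicate 3, and 0 where the libraries with 2 barcode sets were left out, which leaves 1 NP-MTAza library (10 at an unadjusted p under 0.05). With all 3 Aza libraries in the fit, 0 promoters were called under either combination (6 and 4 at an unadjusted p under 0.05). These are counts, and a setting can add a call as well as end one. All genes were fitted in each setting, but their counts are not given here. A loss of calls thus cannot be read as particular to the pathway genes. Over only the CpGs read in all 10 libraries, 3 of 8 F-MTAza calls and 6 of 12 NP-MTAza calls that could still be tested were lost, those of Wnt2b, Wnt5a and Fzd9 and those of Wnt2b, Wnt9b, Fzd3, Dkk2, Sfrp2 and Tcf7.

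Among the antagonists, Dkk1 (chr19:30620353-30624155, minus strand, mm9), an inhibitor of the Lrp5 and Lrp6 co-receptors, was lower in all treated libraries. Its promoter was at 64.5%, 66.2% and 63.8% in PBS, 36.9%, 45.9% and 43.8% in F-MTAza, 34.1%, 46.2% and 38.97% in NP-MTAza and 34.5% in Aza replicate 3. No treated library reached the lowest PBS library. The level fell by 22.7 points under F-MTAza (95% interval of the difference -30.8 to -14.6, adjusted p = 0.00758), by 25.1 points under NP-MTAza (-33.2 to -16.96, adjusted p = 0.00426) and by 30.3 points in Aza replicate 3 (-41.8 to -18.8, adjusted p = 0.0192). The F-MTAza call held under 22 of 23 alternative settings and the NP-MTAza call under 21 of 23. Sfrp1 (chr8:24521974-24560104, plus strand), which binds Wnt ligands, was at 63.3%, 68.9% and 69.5% in PBS, 49.4%, 52.8% and 48.2% in F-MTAza, 53.6%, 57.9% and 52.5% in NP-MTAza and 47.7% in Aza replicate 3, again without overlap with PBS. Its promoter fell by 17.1 points under F-MTAza (-22.6 to -11.6, adjusted p = 0.0136) and by 12.5 points under NP-MTAza (-17.99 to -7.07, adjusted p = 0.0439). The F-MTAza call of Sfrp1 held under 21 of 23 settings, the NP-MTAza call under 7 of 23.

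Dkk3 (chr7:119259533-119302571, minus strand), a divergent member of the Dkk family, had the highest antagonist promoter, at 92.3%, 86.4% and 94.8% in PBS, 77.5%, 52.6% and 65.7% in F-MTAza, 78.7%, 81.3% and 77.03% in NP-MTAza and 59.3% in Aza replicate 3. All treated libraries were below all PBS libraries. The promoter fell by 25.9 points under F-MTAza (-39.5 to -12.3, adjusted p = 0.00769) and by 31.9 points in Aza replicate 3 (adjusted p = 0.0292), and the difference under NP-MTAza was -12.1 points (-25.7 to 1.47, adjusted p = 0.0817). Sfrp4, another binder of Wnt ligands, was at 56.1%, 51.3% and 53.3% in PBS and 21.95%, 21.3% and 19.1% in F-MTAza, a fall of 32.8 points (-54.8 to -10.7, adjusted p = 0.0215). In NP-MTAza it was at 74.4%, 35.1% and 39.02%, with replicate 1 above every PBS library and the other 2 below, and the difference of -4.05 points had an interval of -26.1 to 18. The Sfrp4 promoter overlaps that of the neighbouring gene Epdr1, so its level belongs to both.

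Under NP-MTAza, 3 more antagonist promoters were called. Sfrp5 was at 56.9%, 45.6% and 62.1% in PBS, 40.8%, 41.98% and 39.5% in F-MTAza and 38.3%, 32.02% and 35.9% in NP-MTAza, and fell by 19.5 points under NP-MTAza (-28.8 to -10.1, adjusted p = 0.0167). Sfrp2 was at 63.8%, 81.3% and 73.7%, 57.6%, 68.4% and 59.2% and 60%, 52.7% and 54.5%, with a fall of 17.2 points (adjusted p = 0.0425), and Dkk2 at 48.1%, 50% and 43.5%, 31.03%, 23.3% and 48.2% and 22.9%, 29.9% and 29.6%, with a fall of 19.7 points (adjusted p = 0.0421). Of these 3 only Sfrp5 had all F-MTAza libraries below PBS too. Sfrp2 held under 10 of 23 settings, Dkk2, which rests on 3 to 18 CpGs per library, under 7 of 21, and Sfrp5 under 16 of 23. Wif1, a Wnt inhibitor that had the lowest antagonist promoter, was at 14.6%, 20.6% and 17.3% in PBS, 13.2%, 12.3% and 6.38% in F-MTAza and 6.88%, 11.3% and 10.2% in NP-MTAza. Its groups did not overlap, yet its differences of -6.84 and -8.03 points did not pass the test (adjusted p = 0.150 and 0.0999).

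Among the ligands, Wnt2b (chr3:104747723-104764627, minus strand), a Wnt that acts through β-catenin, was the one called under both combinations. Its promoter was at 49.5%, 53.9% and 56.5% in PBS, 23.9%, 37.6% and 28.01% in F-MTAza, 35.5%, 36.2% and 32.8% in NP-MTAza and 37.4% in Aza replicate 3, with every treated library below every PBS library. It fell by 23.5 points under F-MTAza (-31.8 to -15.1, adjusted p = 0.00684) and by 18.5 points under NP-MTAza (-26.8 to -10.1, adjusted p = 0.0183). Over only the CpGs read in all 10 libraries, the Wnt2b differences were -9.46 points (adjusted p = 0.238) and -5.92 points (adjusted p = 0.432), so neither call held there. Wnt5a, best known for signalling without β-catenin, was at 11.8%, 18.99% and 12.9% in PBS, 5.13%, 3.48% and 3.53% in F-MTAza and 12.9%, 5.16% and 3.55% in NP-MTAza. It fell by 10.5 points under F-MTAza (-17.3 to -3.75, adjusted p = 0.0326), a call that held under 11 of 22 settings, while NP-MTAza replicate 1 lay within the range of PBS.

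The promoters of Wnt10b, Wnt2, Wnt9b and Wnt3 were called under NP-MTAza. Wnt10b, a canonical ligand, was at 75.5%, 68.8% and 75.1% in PBS, 59.5%, 68.4% and 43.3% in F-MTAza and 51.1%, 53.6% and 36.6% in NP-MTAza, and fell by 26.03 points (-42.3 to -9.73, adjusted p = 0.0195). Wnt2 was at 75.9%, 66.2% and 66.5%, 60.1%, 50.4% and 50.6% and 59.6%, 48.5% and 43.3%, and fell by 19.1 points (-30.7 to -7.40, adjusted p = 0.0298). Aza replicate 3, at 68.7%, stayed within the PBS range at Wnt2. Wnt9b, the inducer of the nephron from the ureteric bud, was at 50.8%, 50.3% and 50.98% in PBS, 39.9%, 33.6% and 37.01% in F-MTAza and 28.4%, 28.05% and 41.1% in NP-MTAza, with a spread of under 1 point between the PBS libraries. It fell by 18.2 points under NP-MTAza (-26.6 to -9.84, adjusted p = 0.0180). Over the CpGs read in all 10 libraries the Wnt9b difference was -5.63 points (adjusted p = 0.514). Wnt3 was at 29.7%, 27.8% and 30.8%, 21.9%, 18.2% and 26.2% and 14.8%, 17.5% and 17.04%, and fell by 12.98 points under NP-MTAza (-18 to -7.96, adjusted p = 0.0216). At all 4 genes the F-MTAza libraries were also below PBS, with adjusted p = 0.110, 0.0612, 0.0596 and 0.163 in that order, so a call in one combination alone does not show that the combinations differ.

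Other ligand promoters did not pass the test. Wnt4, which drives the change of mesenchyme to epithelium in the nephron, was at 47%, 79.8% and 31.1% in PBS, 37.96%, 20.5% and 27.4% in F-MTAza and 60%, 16.6% and 25.1% in NP-MTAza. With 3 to 41 CpGs per library, the PBS libraries alone spread over more than the difference between groups. Wnt7b was at 60.2%, 26.8% and 48.8% in PBS, 41.98%, 35.2% and 58.1% in F-MTAza and 20.6%, 45.9% and 33.4% in NP-MTAza, also without a clear order. Wnt5b was at 57.4%, 71.6% and 69.2%, 41.2%, 56.6% and 49.8% and 48.3%, 56.99% and 42.4%, without overlap and with adjusted p = 0.0660 and 0.0653. Wnt7a and Wnt9a were the 2 ligand promoters with little methylation, at 4.71% and 4.06% on average in PBS, 4.66% and 5.29% in F-MTAza, and 4.52% and 2.19% in NP-MTAza.

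**Figure D2:**
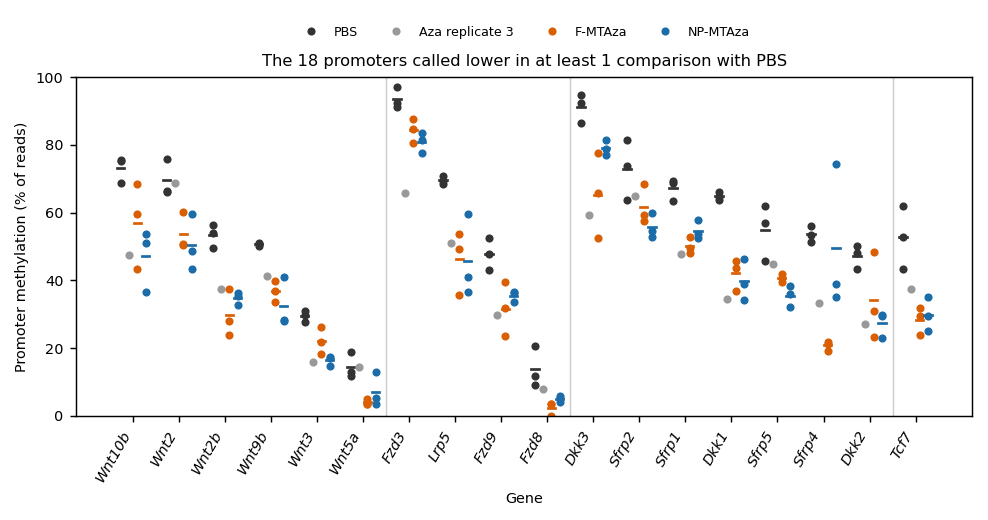
Promoter methylation (percent) of the 18 genes called lower under F-MTAza or NP-MTAza, with a point for each library and a bar at the group mean. The treated points lie below the PBS points at most of these genes, and Sfrp4 in NP-MTAza replicate 1 (74.4%) is above its PBS points.

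Lrp5 (chr19:3584825-3686564, minus strand) was the receptor gene called under both combinations. The co-receptor's promoter was at 69.3%, 68.4% and 70.9% in PBS, 53.7%, 35.6% and 49.3% in F-MTAza, 59.6%, 36.7% and 41.04% in NP-MTAza and 50.9% in Aza replicate 3. The PBS libraries were within 3 points of each other and every treated library lay below them, although the treated libraries spread widely. The promoter fell by 23.3 points under F-MTAza (-38.99 to -7.68, adjusted p = 0.0301) and by 23.7 points under NP-MTAza (-39.4 to -8.08, adjusted p = 0.0265), and each call held under 12 of 23 settings. The related Lrp6 was at 0.455%, 7.45% and 0.546% in PBS and 0.220%, 0.915% and 0% in F-MTAza, close to 0 in both.

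Fzd3 (chr14:65819863-65881300, minus strand), whose methylated CpGs are printed above, is the Frizzled gene with the highest promoter. It was at 92.3%, 96.95% and 91.1% in PBS, 80.7%, 84.7% and 87.7% in F-MTAza, 81.4%, 83.6% and 77.7% in NP-MTAza and 65.7% in Aza replicate 3. Aza replicate 3 was the lowest library and no treated library overlapped PBS. The level fell by 12.5 points under NP-MTAza (-18.5 to -6.59, adjusted p = 0.0163) and by 27.8 points in Aza replicate 3 (-36.2 to -19.3, adjusted p = 0.0127), and the F-MTAza difference was -9.10 points (-15.05 to -3.15, adjusted p = 0.0504). Over the CpGs read in all 10 libraries the NP-MTAza difference at Fzd3 was -5.85 points (adjusted p = 0.667).

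The Frizzled receptor genes Fzd9 and Fzd8 were called under F-MTAza. Fzd9 was at 42.9%, 52.6% and 47.6% in PBS, 23.7%, 39.4% and 31.99% in F-MTAza and 36.7%, 36.3% and 33.5% in NP-MTAza, and fell by 16.03 points under F-MTAza (-25.7 to -6.37, adjusted p = 0.0422), a call that held under 6 of 22 settings. Fzd8 was at 9.07%, 20.5% and 11.7%, 0%, 3.47% and 3.51% and 4.02%, 5.95% and 5.22%, and fell by 11.4 points under F-MTAza (-18.2 to -4.66, adjusted p = 0.0184). At both genes the treated and PBS libraries did not overlap. Fzd10 kept a high level, at 74%, 72.3% and 77.4% in PBS, 67.99%, 75% and 80.05% in F-MTAza and 62.1%, 65.3% and 61.3% in NP-MTAza, with differences of -0.204 and -11.6 points (adjusted p = 0.991 and 0.0749). Fzd4, Fzd5 and Fzd6 averaged 8.54%, 5.33% and 11.7% in PBS and were not called in any comparison. The Fzd4 promoter overlaps that of Tmem135, so its level belongs to both.

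Among the intracellular components, Tcf7 (chr11:52065873-52096681, minus strand), which encodes the TCF/LEF factor TCF1, was the one promoter called and the one at 40% or more in PBS. It was at 43.4%, 61.9% and 52.9% in PBS, 24.02%, 29.5% and 31.8% in F-MTAza, 35.2%, 25.2% and 29.4% in NP-MTAza and 37.4% in Aza replicate 3. Every treated library was below every PBS library. The level fell by 24.3 points under F-MTAza (-35.8 to -12.7, adjusted p = 0.0113) and by 22.8 points under NP-MTAza (-34.3 to -11.3, adjusted p = 0.0136). Over the CpGs read in all 10 libraries the NP-MTAza difference at Tcf7 was -16.7 points (adjusted p = 0.0653). Tcf7l1, another TCF factor, was at 21.95%, 42.1% and 35.9% in PBS, 21.7%, 28.4% and 23.2% in F-MTAza and 27%, 24.5% and 19.5% in NP-MTAza, with overlapping groups, and the Dishevelled gene Dvl2 at 37.2%, 43.3% and 30.5%, 31.9%, 22.2% and 43.96% and 18.7%, 23.8% and 26.1%. The least methylated promoters were those of the kinase gene Lats1 (0%, 1.94% and 0.104% in PBS), Tcf7l2 (0.305%, 2.80% and 0%) and Dvl3 (1.47%, 2.04% and 3.94%). They had no room to fall by 10 points. The Lats1 promoter overlaps that of Pcmt1, so its level belongs to both. Dvl3 was at 5.66%, 7.02% and 9.52% in F-MTAza, a difference of 4.92 points with an interval of 0.687 to 9.15 that did not pass the test over all genes (adjusted p = 0.117). The promoter of Yap1, the Hippo coactivator, was at 8.66%, 2.88% and 4.04% in PBS, 0.721%, 2.29% and 24.2% in F-MTAza and 1.98%, 3.86% and 3.25% in NP-MTAza, so F-MTAza replicate 3 alone was high. Tead2, whose promoter overlaps that of Dkkl1, was at 33.5%, 29.1% and 9.91% in PBS, 5.30%, 20.3% and 48.7% in F-MTAza and 31.5%, 10.7% and 11.6% in NP-MTAza, with wide overlap.

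Left out in turn, no single library ended the F-MTAza calls of Dkk1, Dkk3, Sfrp1, Wnt2b and Tcf7 or the NP-MTAza call of Dkk1. The other calls were lost without 1 or more libraries, at differences that kept their direction. Under NP-MTAza, Tcf7 was lost without NP-MTAza replicate 2 (-20.4 points, adjusted p = 0.0543), Fzd3 without NP-MTAza replicate 3 (-10.9 points, 0.0684), and Wnt2b without PBS replicate 3 (-16.9 points, 0.0545) or NP-MTAza replicate 3 (-17.5 points, 0.0691). Wnt2 was lost without PBS replicate 1 or NP-MTAza replicates 2 or 3 (adjusted p = 0.0875 to 0.115), Wnt10b without either of PBS replicates 1 and 3 or without NP-MTAza replicate 3 (0.0528 to 0.0801) and Wnt9b without PBS replicate 1 or NP-MTAza replicates 1 or 2 (0.0506 to 0.0702). Sfrp5 was lost without PBS replicates 1 or 3 or NP-MTAza replicates 2 or 3 (0.0522 to 0.0625). Under F-MTAza, Fzd8 was lost without PBS replicate 2 (-8.04 points, 0.0620) or F-MTAza replicate 1 (-10.3 points, 0.0510), and Sfrp4 without PBS replicates 1 or 2 or F-MTAza replicates 2 or 3 (0.0527 to 0.0630). The calls of Lrp5 (both combinations), Wnt5a and Fzd9 (F-MTAza) and Wnt3, Sfrp2, Dkk2 and Sfrp1 (NP-MTAza) each depended on 5 to 9 of the libraries, every 1 of which ended the call when left out, at adjusted p of 0.0505 to 0.141.

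Within the 20 promoters at 40% or more in PBS, 8 (40%) were called under F-MTAza and 12 (60%) under NP-MTAza, against 59.2% and 66.0% of all promoters above that level. They kept a median of 69.9% of their PBS level under the combinations, and all promoters above that level kept 68.5%. The median promoter difference of the combinations from PBS was -16.6 points for antagonists, -14.1 for ligands, -7.25 for receptors and -2.30 for intracellular components, in the same order as the PBS levels, and it was -9.24 over the 47 genes and -5.46 over all genes. Without PBS replicate 2 it was -2.20 for receptors and -0.386 for intracellular components, and without PBS replicate 1 or F-MTAza replicate 1 it was -0.782 and -1.28 for intracellular components.

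The level of a promoter window depended on the distance from the gene start. Within 500 bp of the start, the PBS median was 58.9% for 8 antagonists, 37.6% for 12 ligands, 8.01% for 11 receptors and 2.12% for 10 intracellular components, with 18.7% over the 41 genes measured and 4.25% over all genes. The sequence over 500 to 2000 bp upstream could be compared with it in the PBS libraries at 24 genes. It was higher at 20 of them, by 40 points or more at 9, and the medians of the 24 genes were 57.3% upstream and 18.2% at the start. At Wnt7b the CpGs near the start averaged 8.45% in PBS and those upstream 91.9%, and the upstream CpGs averaged 54.1% in F-MTAza and 53.3% in NP-MTAza. Thus at Wnt7b the upstream part was lower in the treated libraries (50.5% to 60.2% and 43.98% to 63.6%, against 90.8% to 92.7% in PBS), although the whole promoter showed no clear order. Dvl2 had the same form, with 2.50% near the start and 93.1% upstream in PBS, and 63.7% and 59.9% upstream in F-MTAza and NP-MTAza.

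At Tcf7 the methylated CpGs of the promoter lay upstream, with 17.7% near the start and 83.1% upstream in PBS. In F-MTAza these were 8.40% and 61.5%, and in NP-MTAza 12.7% and 52.3%, and the calls of Tcf7 were lost with a promoter cut at 500 bp upstream. Lrp5 was at 37.6% near the start and 94.2% upstream in PBS, and upstream at 62.4% in F-MTAza and 61.1% in NP-MTAza. Its calls were likewise lost with the shorter window. In 4 genes, Wnt2b, Wnt3, Fzd8 and Fzd10, the start was the more methylated side. Fzd10 was at 93.97% near the start and 61.9% upstream in PBS. With only the 500 bp either side of the start, 5 of 41 genes (12.2%) were called under F-MTAza (Dkk1, Dkk3, Sfrp1, Sfrp4 and Wnt2b), against 17.0% of all genes. Under NP-MTAza 8 (19.5%) were called (Dkk1, Dkk2, Fzd3, Sfrp2, Sfrp5, Wnt2b, Wnt3 and Wnt9b), against 19.3%. All calls at the start were thus antagonists, ligands or Fzd3. This shorter window was added after the data had been seen.

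**Figure D3:**
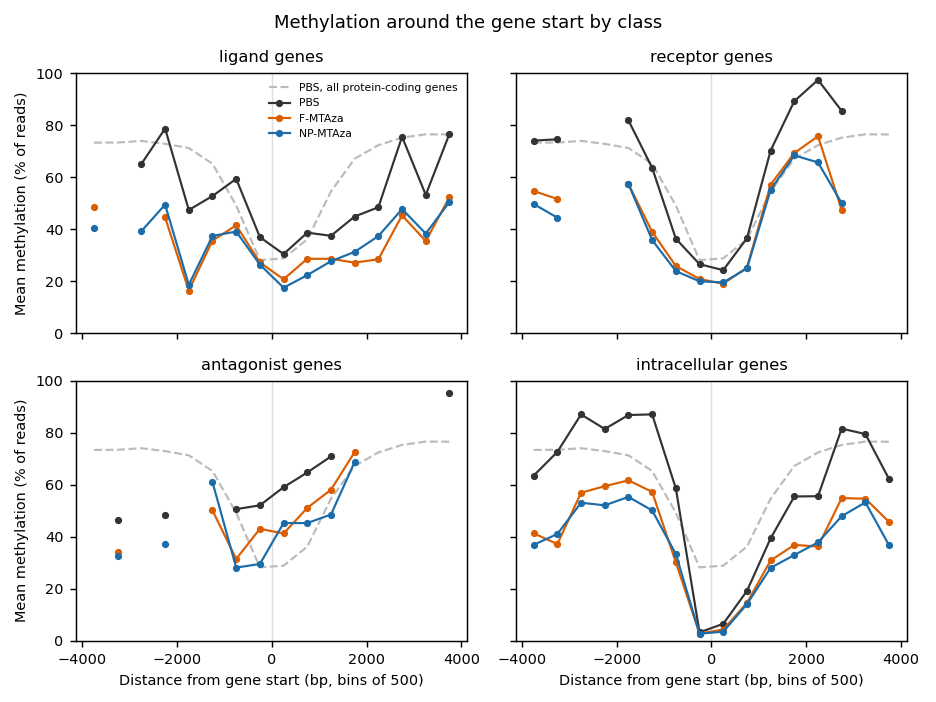
Mean methylation (percent) in bins around the gene start for each role, by group, against the distance from the start in bp. Intracellular genes dip close to 0 at the start (PBS median 2.12% within 500 bp) and antagonists do not (58.9%), and treated lines lie below PBS where PBS is high.

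**Figure D4:**
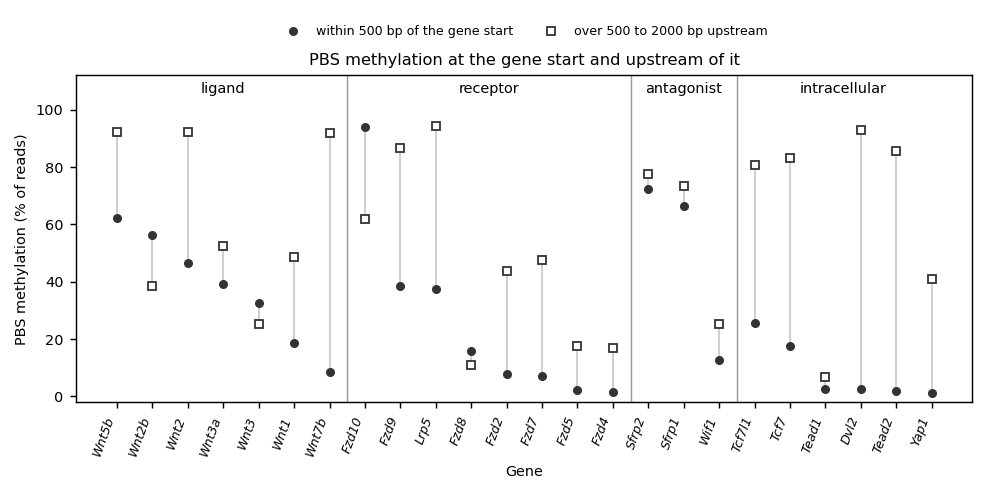
Mean PBS level (percent) within 500 bp of the gene start and over 500 to 2000 bp upstream for the 24 genes with both windows, grouped by role. The upstream value is the higher one in PBS at 20 of the 24 genes.

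Several genes have further starts of coding transcripts inside their body, which the promoter window leaves out. Levels within 500 bp of such starts were as low as at a typical unmethylated start at some genes. Ctnnb1, the β-catenin gene, had no promoter value, but around a start 4184 bp downstream it averaged 5.00% in the 2 PBS libraries read there, 5.89% in F-MTAza and 8.21% in NP-MTAza. Lats2 was at 0.768% in PBS around a start 12265 bp downstream. At other genes the later starts were methylated. Lats1 averaged 92.2% in 2 PBS libraries around a start 10038 bp downstream, with 47.7% in F-MTAza and 57.9% in NP-MTAza, 2 libraries each. Lrp6 averaged 94.3% in PBS around a start 95672 bp downstream, with 63.1% in F-MTAza and 56.3% in NP-MTAza. Wnt7b was at 3.91% around a start 1092 bp downstream and at 76.1% around one 3751 bp downstream. Axin2, a scaffold of the destruction complex and itself a Wnt target, was at 18.6% around a start 987 bp downstream and 88.0% around one 2832 bp downstream. Axin2 was named after its values were seen, and none of these windows was tested.

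The gene bodies were measured in 57 of the 58 genes, all but Sav1, and nearly all were lower in the treated cells. Under F-MTAza 53 bodies (93.0%) were called lower, against 84.7% of all genes, and under NP-MTAza 54 (94.7%), against 87.2%. Without the libraries with 2 barcode sets, which leaves 1 NP-MTAza library, 48 bodies were called under NP-MTAza. In Aza replicate 3 it was 48 (84.2%), against 80.2%. Both combinations called 52, no body was called higher, and all 6 combination libraries were below all 3 PBS libraries at 53 bodies (93.0%), against 81.5% of all genes. The PBS median was 76.6% over the 57 bodies and 77.3% over all genes, with 81.8% for receptors, 77.8% for intracellular components, 76.3% for antagonists and 68.4% for ligands. The median difference of the combinations from PBS was -24.9 points (all genes -26.7), with -26.9 for antagonists, -26.6 for intracellular components, -24.1 for receptors and -22.1 for ligands. The roles that differed so much at the promoter were thus close together in the body, where each kept a median of 66.6% to 68.1% of its PBS level, beside 64.7% over all genes. The bodies of Wnt5b, Ctnnb1, Dvl1, Dvl2, Tcf7l1, Lats2, Tead2 and Sav1 overlap other genes, so their CpGs belong to both.

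Averaged over both combinations, the largest body difference was at Axin1, the scaffold of the β-catenin destruction complex, at 93.9%, 93.3% and 91.1% in PBS, 47.9%, 47.1% and 48.3% in F-MTAza and 53.4%, 47.2% and 66.8% in NP-MTAza. It fell by 44.99 points under F-MTAza (-55.2 to -34.8, adjusted p = 1.8e-05) and fell by 36.95 points under NP-MTAza (-47.2 to -26.8, adjusted p = 3.11e-05). Only 1 CpG of the Axin1 body was read in all 6 libraries of the F-MTAza comparison, and 2 in that of NP-MTAza. The Axin1 differences thus rest in part on CpGs that not every library read. Under NP-MTAza alone, Tead2 and Dvl2 fell by more than Axin1. Tead2, a TEAD factor, was at 94.02%, 82.9% and 95.6%, 46.7%, 53.3% and 53.2% and 51.2%, 47.99% and 52.02%. Its body fell by 39.8 and 40.4 points (adjusted p = 4.81e-05 and 4e-05), while its promoter was not called. The body of Dvl2 was at 87.6%, 84.1% and 87.1% in PBS, 47.2%, 57.8% and 59.1% in F-MTAza and 47.1%, 50.2% and 47.2% in NP-MTAza, and fell by 31.6 and 38.1 points (adjusted p = 3.29e-05 and 1.38e-05). In each of these 3 genes, treated and PBS libraries were far apart.

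Among the ligand bodies, Wnt2 was at 90.7%, 93.8% and 86.6% in PBS, 55.97%, 55.3% and 49.6% in F-MTAza and 54.1%, 51.03% and 61.9% in NP-MTAza, and fell by 36.8 and 34.7 points (adjusted p = 2.55e-05 and 2.75e-05). Wnt16, which had no promoter value, fell from 96.2% ± 1.60 (SD, n = 3) to 64.4% ± 2.52 (SD, n = 3) under F-MTAza and 67.6% ± 1.36 (SD, n = 3) under NP-MTAza (adjusted p = 1.13e-05 and 8.79e-06). The kidney ligands Wnt9b, Wnt4 and Wnt7b fell too. Wnt9b fell by 28.1 points under F-MTAza and 31.1 under NP-MTAza from 80.8%, Wnt4 by 30.2 and 28.4 from 86.1%, and Wnt7b by 25.3 and 24.5 from 67.1%. The largest adjusted p among these 6 comparisons was 0.000487. Wnt9a was the ligand whose body was not called, at 47.9%, 25.9% and 41.5% in PBS, 23.1%, 22.2% and 34.8% in F-MTAza and 23.9%, 32.4% and 35.9% in NP-MTAza, with overlapping groups (adjusted p = 0.103 and 0.273).

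Among the receptor bodies, Fzd6 was at 90.2%, 93.05% and 87.1% in PBS, 67.6%, 52.5% and 48.6% in F-MTAza and 64.3%, 53.4% and 53.9% in NP-MTAza, and fell by 33.9 and 32.9 points (adjusted p = 0.000157 and 0.000167). Both co-receptor genes fell with little spread between libraries. Lrp6 was at 85.8%, 86.3% and 82.6% in PBS, 53.98%, 56.3% and 58.7% in F-MTAza and 53.8%, 53.4% and 52.8% in NP-MTAza, and Lrp5 at 89.8%, 89.2% and 89.5%, 65.1%, 61.8% and 63.8% and 60.1%, 62.4% and 59.7%. Lrp6 thus combined a promoter near 0 with a body that fell by 28.6 and 31.6 points (adjusted p = 1.58e-05 and 9.55e-06). Fzd8 was at 62.4%, 62.8% and 68.8%, 38.1%, 54.04% and 58.3% and 60.3%, 47.5% and 52.1%, and was called under F-MTAza (adjusted p = 0.0342) but not under NP-MTAza (0.0800). The F-MTAza call of the Fzd8 body was lost when any one of the PBS libraries or F-MTAza replicate 1 was left out (0.0526 to 0.108). Fzd7, named here after its values were seen because it was an exception, was at 65.4%, 59.97% and 43.5% in PBS and 39.4%, 33.3% and 37.1% in F-MTAza, with adjusted p = 0.0647.

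Of the antagonist bodies, Sfrp1 fell from 75.9% ± 1.42 (SD, n = 3) to 47.1% ± 0.895 (SD, n = 3) and 45.6% ± 5.27 (SD, n = 3), and Sfrp2 from 84.8% ± 2.86 (SD, n = 3) to 56.6% ± 3.56 (SD, n = 3) and 53.6% ± 6.11 (SD, n = 3), under F-MTAza and NP-MTAza. Dkk2 fell by 28.9 and 28.4 points (adjusted p = 0.000419 and 0.00044), with 1 CpG of its body read in all 6 libraries of the F-MTAza comparison and 19 in that of NP-MTAza. Dkk1 was the reverse of the general pattern, with a promoter that was called in every comparison with PBS and a body that was not. Its body was at 50.6%, 46.4% and 43.03% in PBS, 34.6%, 29.8% and 40% in F-MTAza and 15.8%, 48.8% and 37.9% in NP-MTAza, over 11 to 26 CpGs per library, and NP-MTAza replicates 1 and 2 were the lowest and one of the highest of all libraries. The Sfrp5 body, over 9 to 20 CpGs, was at 70.8%, 68.2% and 65.3% in PBS, 65.4%, 58.2% and 47.5% in F-MTAza and 30.8%, 44.7% and 38.5% in NP-MTAza, with F-MTAza replicate 1 within the PBS range and every NP-MTAza library below every F-MTAza library. It fell by 30.1 points under NP-MTAza (adjusted p = 0.000504).

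All 19 measured intracellular bodies were called lower under both combinations. Ctnnb1 was at 40.02%, 72.7% and 37.8% in PBS, 22.3%, 30.1% and 28.9% in F-MTAza and 29.3%, 30.5% and 26.3% in NP-MTAza, and fell by 23.1 and 21.5 points (adjusted p = 0.0237 and 0.0319). PBS replicate 2 was far above the other PBS libraries at Ctnnb1. Without it the Ctnnb1 difference was -11.8 points under F-MTAza and -10.2 under NP-MTAza, and the calls were lost without F-MTAza replicate 1 (adjusted p = 0.0726) or when any one of the NP-MTAza libraries was left out (0.0584 to 0.0815). The Hippo genes Yap1 and Lats1 were low at the promoter and fell in the body. Yap1 was at 67.7%, 76.1% and 55.7%, 25.2%, 41.04% and 48.2% and 41.7%, 39.98% and 32.2% (adjusted p = 0.00413 and 0.00400), and Lats1 at 62.8%, 89.9% and 74.3%, 44.6%, 51.5% and 51.4% and 47.2%, 61.5% and 37.02% (adjusted p = 0.0116 and 0.0102). In the Lats1 body 0 CpGs were read in all 6 libraries of the F-MTAza comparison and 3 in that of NP-MTAza, so its libraries largely differ in the CpGs read. Lats2, the other Lats kinase, had the smallest body difference of this role, from 61.4% ± 3.79 (SD, n = 3) to 48.6% ± 2.47 (SD, n = 3) and 43.3% ± 2.73 (SD, n = 3). The Lats2 body includes the start 12265 bp downstream, at 0.768% in PBS, where there was almost no methylation to lose. The Ctnnb1 body likewise includes the start 4184 bp downstream, at 5.00% in 2 PBS libraries.

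**Figure D5:**
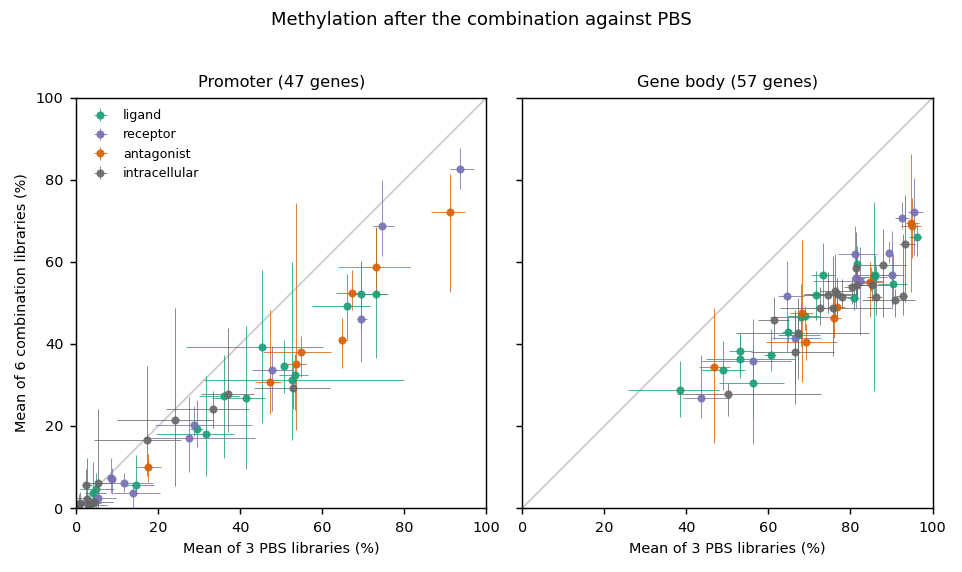
Mean level in PBS (percent, horizontal) against the mean level under both combinations (percent, vertical) for 47 promoters and 57 bodies, coloured by role, with the line of equal levels. Bodies lie below the line at all 57 genes, and promoters spread from near 0, on the line, to high levels, below it.

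Carrier and free drug were compared directly. Of the 47 promoters 0 were called between NP-MTAza and F-MTAza in limma, as were 0.0% of all promoters in each direction, and of the 57 bodies 0. At an unadjusted p under 0.05 there were 3 promoters (Fzd10, Sfrp4 and Apc, the last named after its values were seen) and 1 body (Sfrp5) among these genes, and 553 promoters and 856 bodies among all genes. Quasi-binomial regression also called 0, with 2 promoters and 4 bodies of these genes at an unadjusted p under 0.05. The test leaves room for sizeable differences at single genes. NP-MTAza minus F-MTAza was 28.7 points at the Sfrp4 promoter (6.65 to 50.8), -11.4 at the Fzd10 promoter (-18.7 to -4.18) and -19.02 at the Sfrp5 body (-30.5 to -7.55). At Dkk1, called under both, it was -2.41 points (-10.5 to 5.70).

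The combinations were also set against Aza replicate 3. Again 0 promoters and 0 bodies of the pathway genes were called in limma, and 0.0% of all genes. The promoters of Wnt2 and Fzd3 and 0 bodies were below 0.05 without adjustment in limma's test across all genes, with 274 promoters and 541 bodies among all genes. Quasi-binomial regression called 0, with 2 promoters and 1 body at an unadjusted p under 0.05. At the Wnt2 promoter the mean of the combinations minus Aza replicate 3 was -16.6 points (-32.05 to -1.16), and at the Fzd3 promoter 16.9 points (9.06 to 24.8). These rest on a single Aza library. With all 3 Aza libraries in the fit, 15 promoters were called, 14 of them lower under the combinations, and that count carries the 2 Aza libraries that stood apart. Over all promoters measured, the medians were 42.1% and 46.2% in Aza replicates 1 and 2, against 9.16% in replicate 3. The raised level was thus not particular to the pathway genes, and the share of all promoters called in that fit is not given here.

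A CpG entered the single-CpG test if each of the 6 libraries compared covered it with 5 or more reads. Over the promoters and bodies of the 58 genes, 434 of 2378 CpGs (18.3%) were lower under F-MTAza, with q below 0.01 and a shift of 35 points or more, against 22.0% of all CpGs. Under NP-MTAza it was 787 of 3608 (21.8%), against 25.9%, and 0 CpGs of these genes were higher in either comparison. The test pools the reads of a group and ignores the spread between its libraries. A chi-square test that includes this spread, added after the data had been seen, called 375 and 691. Bodies had the larger shares. Under F-MTAza 26.2% of 808 intracellular body CpGs, 22.6% of 358 receptor, 18.3% of 131 antagonist and 15.6% of 578 ligand body CpGs were lower. In promoters the shares were 6.90% of 87 intracellular, 5.44% of 147 ligand, 5.22% of 134 antagonist and 4.44% of 135 receptor CpGs. The intracellular promoter CpGs called lay in Dvl2, Tcf7 and Tcf7l1 alone (1, 3 and 2 CpGs). A share over the promoter CpGs of all genes was not computed. Under NP-MTAza the body shares were 31.5% of 1228, 22.5% of 538, 23.5% of 187 and 20.2% of 886 CpGs for intracellular components, receptors, antagonists and ligands, and the promoter shares 10.8% of 176, 4.26% of 235, 6.58% of 152 and 8.25% of 206. The intracellular promoter CpGs called again lay in Dvl2, Tcf7 and Tcf7l1 alone (6, 8 and 5 CpGs).

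Other genes of both pathways, from lists that leave out the 58, were read in the same fit. For comparison, 23.0% of all promoters were called lower under F-MTAza, 25% under NP-MTAza and 11.3% in Aza replicate 3. Of 53 further Wnt genes, 40 had a promoter value, with a PBS median of 43.6%, and 20 were at 40% or more in PBS. Of these 40 genes, 10 were lower under F-MTAza, 14 under NP-MTAza and 2 in Aza replicate 3. Among them Tle2, a Groucho-type corepressor of TCF factors, was at 76.3%, 78.6% and 68.8% in PBS, 46.8%, 57.1% and 55.4% in F-MTAza and 58.9%, 51.7% and 59.7% in NP-MTAza (adjusted p = 0.0101 and 0.0198). Kremen2, a receptor for Dkk proteins, was at 61.8%, 76.5% and 54.9%, 36.9%, 48.5% and 41.2% and 49.5%, 40.7% and 46.2% (adjusted p = 0.0270 and 0.0470). Rspo2, which enhances Wnt signalling, was at 64.7%, 57.7% and 67.03%, 49.9%, 50.8% and 54.3% and 44.8%, 48.05% and 46.3%, and was called under NP-MTAza (adjusted p = 0.0158). At these 3 genes no combination library reached the PBS range. Of the 50 Wnt bodies measured, 48 were lower under each combination, against 84.7% of all bodies under F-MTAza and 87.2% under NP-MTAza.

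The further Hippo genes had mostly unmethylated promoters, with a PBS median of 4.34% over 19 of 26 listed. The same 4 of these 19 were lower under both combinations, against 23.0% (F-MTAza) and 25% (NP-MTAza) of all promoters. They were Rassf1, Dchs1, Fat4 and Vgll2. Rassf1, a scaffold protein that binds Hippo kinases, was at 92.9%, 89.9% and 93.8% in PBS, 60.7%, 80.8% and 54.2% in F-MTAza, 74.7%, 67.3% and 65.6% in NP-MTAza and 55.4% in Aza replicate 3 (adjusted p = 0.00788, 0.0115 and 0.0220). The atypical cadherin gene Dchs1 was at 80.1%, 81.8% and 80.6% in PBS, 66.8%, 65.3% and 61.5% in F-MTAza and 65.4%, 65.4% and 62.3% in NP-MTAza, with little spread within groups (adjusted p = 0.00848 and 0.00718). Of 25 further Hippo bodies, 21 were lower under each combination, against 84.7% and 87.2% of all bodies. Of 7 target gene promoters measured, 3 were at 40% or more in PBS, those of Sp5, Lgr5 and Nkd1. Sp5 and Lgr5 were called under both combinations, as were 59.2% (F-MTAza) and 66.0% (NP-MTAza) of all promoters at that level. Sp5, a transcription factor gene induced by Wnt signalling, was at 52.7%, 57.5% and 59.1% in PBS, 30.1%, 32.6% and 39.2% in F-MTAza and 27.9%, 38.7% and 30.9% in NP-MTAza (adjusted p = 0.00845 and 0.00558). Nkd1, a feedback inhibitor of Wnt signalling, was at 65.4%, 45.9% and 59.3% in PBS, 21.6%, 47.01% and 51.4% in F-MTAza and 66.1%, 49.3% and 45.8% in NP-MTAza, with overlapping groups (adjusted p = 0.186 and 0.815). The promoters of Ccnd1, Myc, Ctgf and Cyr61 were at or below 6.81% in every PBS library. Cell type marker promoters were lower too. Under F-MTAza and NP-MTAza, 3 and 3 of 4 measured proximal tubule promoters were called lower, with 2 and 3 of 3 for the collecting duct, 2 and 2 of 2 for the endothelium, 1 and 2 of 2 for podocytes and 1 and 2 of 2 for epithelium in general. In PBS, 2 of the 4 proximal tubule promoters, 1 of the 2 podocyte promoters and all those of the other 3 lists were at 40% or more. Of all promoters at that level, 59.2% were called lower under F-MTAza and 66.0% under NP-MTAza. Whether the markers fell more than other promoters was not tested, nor was the part of the markers in the pathway results. Together 14 further Wnt and Hippo promoters were lower under F-MTAza, and the count was 8 without PBS replicate 1, 9 without PBS replicate 2 and 7 without F-MTAza replicate 2. Under NP-MTAza it was 18, and 10 without PBS replicate 1, 11 without NP-MTAza replicate 2 and 10 without either other NP-MTAza library. The lists and the genes picked from them were chosen with results of these data known, so these counts describe the genes and are no independent support. The genes shown from these lists were picked after their values were seen.

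The promoters of the 58 genes were rich in CpGs. Their median ratio of observed to expected CpGs was 0.565, beside 0.390 over all genes, and they held a median of 13 MspI sites (CCGG, the sequence at which RRBS cuts) beside 6. By role the ratio was 0.432 for antagonists, 0.527 for ligands, 0.580 for intracellular components and 0.667 for receptors, with 6.5, 13, 15 and 15.5 MspI sites. The most methylated role was thus the poorest in CpGs. Of the 58 promoters, 81.0% could be measured, against 52.2% of all genes. Over all measured genes, CpG-rich promoters were the less methylated ones in PBS (Spearman correlation across genes -0.430), and the same was seen, more weakly, over the 47 (-0.282). Within the roles the correlation was 0.0945 for ligands, -0.0476 for antagonists, -0.148 for intracellular components and -0.357 for receptors, each over few genes. These correlations are descriptions across genes, which share libraries and depth. The TCF/LEF motif CTTTGAT, searched on both strands of the 2500 bp window, was found in 17 of the 58 promoters (29.3%) and in 31.0% of all promoters. The TEAD motif ACATTCC was found in 15 (25.9%) and in 28.4%. Both shares were thus close to those over all genes. The Tcf7 promoter is one of those with CTTTGAT.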

How the data were processed

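DNA methylation was measured by RRBS in 12 libraries of PKD1-Het mouse cells, 3 per group. Per the submitters' processing notes and the study's methods, the authors used Trim Galore 0.4.4 for trimming and Bismark 0.20.1 with Bowtie2 for alignment to mm9, combined the strands and dropped CpGs below 5 reads. Deposited tables list each CpG as the percent methylated, rounded down, beside a text of methylated over total reads, written as a fraction, and levels here were computed from those read numbers. Gene windows followed the GENCODE M1 annotation of mm9. Levels per gene and library were tested in limma 3.58.1 (R 4.3.3) on the arcsine square root scale, over every protein-coding gene and 10 libraries, with Benjamini-Hochberg adjustment for promoters and bodies separately. The 95% intervals come from limma on untransformed levels. Single CpGs were tested by a likelihood ratio test on pooled reads, in Python 3.11.15 with numpy 2.4.6, pandas 2.3.3, scipy 1.17.1 and pysam 0.24.0. Figures used matplotlib 3.10.9. Both tests were tried on simulated data first.

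The genes and lists were chosen with earlier results of these data known. Named with values are, per role, the 3 highest and 3 lowest PBS promoters, the 3 largest and 2 smallest body differences, the called promoters, and Ctnnb1, Wnt4, Wnt9b, Wnt7b and Yap1. Other genes named were added after their values were seen. Alternatives changed the scale, the test, the CpG set, the read and CpG minimum, the threshold, the window and the libraries. Marker lists of other kidney and blood cell types were read in the same fit, and their promoters gave values for the proximal tubule, epithelium, collecting duct, podocyte and endothelium lists only. One marker gene is not reported here.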

Additional observations from a re-analysis of the deposited data

Results flagged for a closer look

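Aza replicates 1 and 2, which enter no comparison here, had methylation at pathway promoters that were nearly free of it in PBS. Over the promoters under 10% in PBS, their medians were 43.4% (14 promoters) and 49.3% (13 promoters), against 0.529% to 5.59% in the 10 other libraries. No group of 4 or more libraries was available for a search for single outlying values.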

How the results depend on the processing

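Of the alternative values of the counts and role medians, 449 stayed within 1.5 times the reported count or within the spread between the PBS libraries, and 83 moved. The 449 include counts that were 0 and stayed at 0. Counts over all genes are not given for most settings, so a moved count cannot be read as particular to these genes. A change of direction could be scored for the median differences only, and 0 of these changed direction. At 10 reads per CpG, 18 promoters of the pathway genes were left, of which 5 were lower under F-MTAza and 6 under NP-MTAza (10 and 13 in the report), and 3 and 4 of 17 for the other Wnt and Hippo genes (14 and 18). A threshold of 20 points left 6 and 4 for the pathway genes and 6 and 9 for the others, and a promoter of 500 bp upstream, added after the data had been seen, left 5 and 8. With all 3 Aza libraries in the fit the counts were 0 for both sets under both combinations (6 and 4 pathway genes, 3 and 6 others at an unadjusted p under 0.05), and combination against Aza gave 15. With only the libraries of 1 barcode set, NP-MTAza gave 0 for both sets (10 and 14 unadjusted) and F-MTAza 7 others. Quasi-binomial regression gave 9 others under F-MTAza. Against Aza replicate 3 (3 promoters) the untransformed level and quasi-binomial regression each gave 5.

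The replicate numbers were not taken as pairs, since same-numbered libraries deviated together with correlations of -0.123 to 0.0547. With the replicate block in the fit, 12 promoters were lower under F-MTAza, 11 under NP-MTAza and 1 in Aza replicate 3, 53, 53 and 46 bodies, and 12 and 16 promoters and 68 and 69 bodies of the other genes, with 0 between the combinations and 0 against Aza replicate 3.

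Single CpGs lower under F-MTAza and NP-MTAza (434 and 787) numbered 85 and 247 at 10 reads and 857 and 1529 at 25 points. The planned F test with extra spread called 0 in both, but it found almost none of the changed CpGs in simulated data, so it says nothing here.

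Leaving out 1 library in turn gave 6 to 10 promoters of the pathway genes under F-MTAza, 3 to 13 under NP-MTAza and 2 to 3 in Aza replicate 3. Bodies numbered 50 to 55, 52 to 54 and 46 to 48. For the other genes it gave 7 to 14 and 10 to 20 promoters and 68 to 70 and 68 to 71 bodies. Single CpGs numbered 464 to 586 and 822 to 1007, since more CpGs are read in 5 libraries than in 6. Counts between the combinations and against Aza replicate 3 stayed at 0.

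Median PBS promoter levels over CpGs read in all 10 libraries were 29.3% for ligands, 37.9% for receptors, 66.4% for antagonists and 10.4% for intracellular components, and at 10 reads 50.8%, 53.7%, 63.9% and 12.4%. With each CpG counted once the antagonists were at 63.3%. The median promoter differences over shared CpGs were -7.59 points for ligands, -12.9 for antagonists and -4.95 for intracellular components. Median PBS body levels over shared CpGs were 70.97%, 79.8%, 81.0% and 81.1% in the same order of roles, at 10 reads 70.8% for ligands, 89.3% for receptors and 75.7% for intracellular components, and with each CpG once 79.4% for receptors, 73.8% for antagonists and 80.3% for intracellular components. The receptor body difference was -22.5 points over shared CpGs, -27.0 at 10 reads, -23.6 with each CpG once and -24.6 with 1 barcode set. Leaving out 1 library moved it between -24.8 and -22.0, the antagonist body difference between -28.2 and -25.0, the intracellular promoter difference between -3.24 and -0.386, the intracellular promoter level between 2.91% and 5.81%, the receptor body level between 81.8% and 83.2% and the intracellular body level between 77.8% and 80.9%. The cause of these shifts was not tested. Medians of 7 to 9 reads per CpG limit single-CpG levels.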
